A study of Homo sapiens with 8 samples.

Results

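The transcripts of 48 human DNA repair genes were followed in BEAS-2B cells before, during and after exposure to nickel. The genes were taken by name from the 25411 genes listed for each library, and all 48 were found. They comprised 10 genes of homologous recombination (BRCA1, BRCA2, PALB2, RAD51C, RAD52, RAD54L, BLM, MRE11A, RAD50 and NBN), the 2 checkpoint kinases ATM and ATR, 4 Fanconi anaemia genes (FANCA, FANCC, FANCD2 and FANCI), and 4 mismatch repair genes (MSH3, MSH6, PMS2 and EXO1). Nucleotide excision repair was represented by 10 genes (XPA, XPC, ERCC1, ERCC2, ERCC3, ERCC4, ERCC5, ERCC6, DDB1 and DDB2). Base excision and single-strand break repair was represented by 11 (OGG1, MUTYH, NTHL1, UNG, APEX1, XRCC1, LIG1, LIG3, PARP1, PARP2 and POLB), non-homologous end joining by 6 (XRCC4, XRCC5, XRCC6, LIG4, PRKDC and TP53BP1), and direct reversal of base damage by MGMT. Expression was measured by RNA-Seq.

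BEAS-2B cells are human bronchial epithelial cells that were immortalised with viral genes. Untreated cells (UT) were compared with cells kept for 6 weeks in 100 µM NiCl2 (Ni-E) and with nickel-washed-out cells (Ni-W), which had the same exposure and were then grown without nickel for more than 6 months from a colony founded by 1 cell. A further group, HCl3, had the same exposure (100 µM NiCl2 for 6 weeks) and carried the treatment text of a washed-out clone. Its labels gave neither a time without nickel nor a relation to Ni-W. Whether the washed-out groups are independent of each other is therefore not known. Each group had 2 libraries, described as biological replicates. Because Ni-W and HCl3 each descended from a single cell, an effect of the earlier exposure and a property of the founding cell cannot be told apart, and the experiment numbers in the labels (experiment 2 for Ni-E, 3 and 4 for HCl3) run along with the groups. The labels do not say whether the 2 libraries of a group came from separate cultures, so P values measure the spread between these libraries, which may be technical.

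DNA repair works along separate routes. Base excision repair removes single damaged bases, nucleotide excision repair cuts out a stretch of the strand around bulky lesions such as those made by ultraviolet light, and mismatch repair corrects errors of replication. Breaks of both strands are joined end to end by non-homologous end joining or copied from the sister chromatid by homologous recombination, which the Fanconi anaemia proteins serve at crosslinks, while the MGMT protein takes alkyl groups off guanine in a single step and is used up in doing so.

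The promoter sequences of MGMT, DDB2 and NTHL1 are given first, because MGMT and DDB2 rose most in Ni-W among the differentially expressed repair genes and NTHL1 was the only one of them that fell. Each runs for 300 bases, 250 before and 50 after an annotated start, read on the strand of the gene from RefSeq (GRCh38.p14), a different build from the hg19 coordinates of the expression data. That of MGMT is at chr10:129466991-129467290 on the plus strand, those of DDB2 at chr11:47214204-47214503 and chr11:47214724-47215023 on the plus strand, and that of NTHL1 at chr16:2047785-2048084 on the minus strand. Capitals mark matches on either strand to the E2F core (TT, then 2 letters that are each C or G, then CGC) or to the hypoxia response element core (A or G, then CGTG).
MGMT promoter: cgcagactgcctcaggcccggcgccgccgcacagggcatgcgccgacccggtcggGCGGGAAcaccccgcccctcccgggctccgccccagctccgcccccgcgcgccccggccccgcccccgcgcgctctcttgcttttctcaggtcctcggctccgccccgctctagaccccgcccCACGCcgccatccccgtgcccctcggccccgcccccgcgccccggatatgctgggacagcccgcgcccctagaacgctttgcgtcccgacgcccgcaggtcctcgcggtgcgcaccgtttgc
DDB2 promoter 1: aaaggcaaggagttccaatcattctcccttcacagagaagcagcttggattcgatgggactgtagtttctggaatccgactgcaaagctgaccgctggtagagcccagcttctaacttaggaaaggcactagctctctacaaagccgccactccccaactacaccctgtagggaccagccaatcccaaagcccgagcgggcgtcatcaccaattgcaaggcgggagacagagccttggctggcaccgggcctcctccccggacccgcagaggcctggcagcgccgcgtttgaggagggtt
DDB2 promoter 2: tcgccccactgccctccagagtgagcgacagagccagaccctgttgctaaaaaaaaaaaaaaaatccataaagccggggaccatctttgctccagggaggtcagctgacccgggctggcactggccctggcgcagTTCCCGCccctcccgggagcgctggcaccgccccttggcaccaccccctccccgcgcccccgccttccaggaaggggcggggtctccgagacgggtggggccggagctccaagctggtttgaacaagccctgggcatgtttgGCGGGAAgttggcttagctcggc
NTHL1 promoter: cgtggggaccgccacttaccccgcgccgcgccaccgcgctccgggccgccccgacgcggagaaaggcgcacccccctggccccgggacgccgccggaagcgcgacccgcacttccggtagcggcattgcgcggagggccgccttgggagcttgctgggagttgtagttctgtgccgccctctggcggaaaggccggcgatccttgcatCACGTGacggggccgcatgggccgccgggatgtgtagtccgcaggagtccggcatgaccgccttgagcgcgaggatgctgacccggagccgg

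The MGMT promoter held 45 CpG dinucleotides against a median of 14 over the 35116 promoters in the table, and 96.5% of promoters held fewer. The NTHL1 promoter held 42, and the 2 promoters of DDB2 held 14 and 18. An E2F core occurred once in the MGMT promoter, 2 times in the second DDB2 promoter, and not in the first DDB2 promoter or that of NTHL1. Of the 48 genes, 43 had a promoter in the table, and 24 of these held an E2F core in at least 1 of their promoters. E2F factors drive genes of the S phase. Counted per promoter, the share was 47.7% of the 65 promoters of repair genes, 19% of the 16002 promoters of genes whose mean count was 10 or more, and 13% of all promoters. The hypoxia response element core, the site of the factors that respond to low oxygen and to nickel ions, was found in 72.3%, 60.4% and 48.4% of the same sets. A match to these letters is a description and not a site of binding.

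Libraries held between 26383920 and 45692298 reads, so 3 reads, taken as the floor of detection, made up between 6.57e-06 and 1.14e-05% of a library. This covers counting error only. Markers of epithelial cells were mixed: KRT8 was high in each library (192 to 310 RPKM, reads scaled to gene length and library depth), CDH1, which defines epithelial junctions, did not exceed 0.11 RPKM, and the 6 airway lineage markers summed to at most 0.32 RPKM. Of the 5 fibroblast markers, COL1A1 (178 to 454 RPKM), THY1 (137 to 186 RPKM) and PDGFRB (10.6 to 27.9 RPKM) were expressed, while LUM did not exceed 0.91 RPKM and DCN had no reads. Of the 4 blood cell markers, CD14 was read in every library (1.06 to 4.15 RPKM). PTPRC did not exceed 0.04 RPKM and HBB 0.06 RPKM, and CD3E of T cells had no reads. The summed level of the 10 mitosis genes, which marks dividing cells, was 812 to 853 RPKM in UT. It was 879 to 923 in Ni-E, 1090 to 1120 in Ni-W and 921 to 925 in HCl3. The 16 replication genes summed to 1140 to 1180 RPKM in UT and 1180 to 1220 in Ni-E. They summed to 1080 to 1120 in Ni-W and 1070 to 1100 in HCl3, below UT. The part of the cell cycle in the results below was not tested. In a bulk measurement, fewer cells with a transcript and less of it in each cell cannot be told apart.

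All but 1 of the repair genes were expressed in every library. The median over the 48 genes of the mean level was 12.5 RPKM. XRCC6 and XRCC5, which form the Ku ring that holds broken ends, and DDB1, a subunit of a ubiquitin ligase, exceeded 100 RPKM, 27 genes lay between 10 and 100, and 18 lay under 10. XRCC6 was the most abundant, at 315 and 332 RPKM in the UT libraries, 312 and 308 under nickel (Ni-E), 313 and 304 in the Ni-W clone, and 279 and 301 in HCl3. The exception was MGMT, with no reads in 4 libraries. Between replicates, the median absolute log2 ratio over the other 47 genes was 0.148 for UT, 0.0931 for Ni-E, 0.0784 for Ni-W and 0.0563 for HCl3, and no gene differed by 1.5-fold or more between the replicates of a group.

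**Figure D1:**
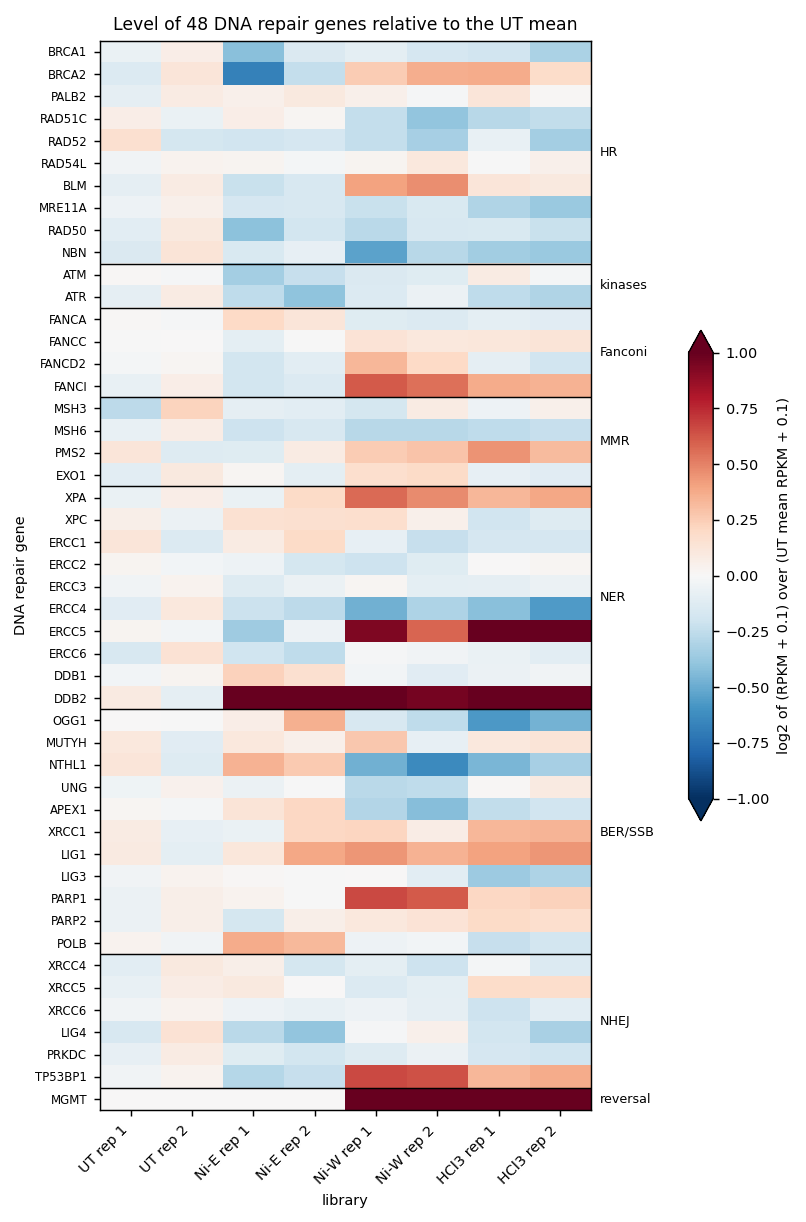
Each row is 1 of the 48 DNA repair genes, ordered by repair route (HR, homologous recombination; MMR, mismatch repair; NER, nucleotide excision repair; BER/SSB, base excision and single-strand break repair; NHEJ, non-homologous end joining), and each column is 1 of the 8 libraries. Colour gives the log2 ratio of RPKM plus 0.1 to the UT mean plus 0.1, with the scale ending at -1 and 1. DDB2 was high in the 6 nickel-treated libraries, MGMT and ERCC5 were high in the 4 washed-out libraries, and most other rows stayed pale.

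Few repair genes changed while nickel was present. A gene passed the test at an adjusted P value under 0.05 (DESeq2) and was called differentially expressed when it also changed by at least 1.5-fold. In Ni-E against UT, 5 of the 47 genes tested passed (10.6%), against 11.6% of all 14478 genes tested. DDB2 rose (background 6.08% for genes that rose), and BRCA1, BRCA2, ATM and ATR fell (background 5.52%). Only DDB2 was differentially expressed, 2.13% of the genes, against a background of 5.8%. The median log2 fold change was -0.11 over the 47 genes, with 33 below zero and 14 above, and -0.00 over all genes.

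More genes passed in the washed-out groups, as they did in the genome at large. In Ni-W against UT, 16 of 48 genes passed (33.3%, background 31.1%), of which 9 rose (MGMT, DDB2, ERCC5, TP53BP1, PARP1, FANCI, XPA, BLM and LIG1) and 7 fell (NTHL1, NBN, ERCC4, APEX1, RAD51C, MSH6 and UNG). Of all genes, 17.5% rose and 13.6% fell. MGMT, DDB2, ERCC5, TP53BP1, PARP1 and NTHL1 were differentially expressed (12.5%, background 15.7%). With Ni-W replicate 1 or replicate 2 left out, 6 and 7 genes passed, and MGMT, DDB2, TP53BP1, PARP1 and FANCI passed whichever library was left out. In HCl3 against UT, 19 of 48 genes passed (39.6%, background 31.4%). Here 7 rose (MGMT, DDB2, ERCC5, FANCI, XRCC1, LIG1 and TP53BP1) and 12 fell (BRCA1, RAD51C, MRE11A, NBN, ATR, MSH6, ERCC4, OGG1, NTHL1, APEX1, LIG3 and PRKDC). Of all genes, 17.1% rose and 14.3% fell. Only MGMT, DDB2 and ERCC5 were differentially expressed (6.25%, background 14.8%). The medians were -0.08 in Ni-W and -0.12 in HCl3, each against 0.01 over all genes. These shares were near the background in Ni-E and Ni-W. In HCl3 the share that fell was above that of all genes, a count that dropped to 3 genes in both directions together when either HCl3 library was left out. The 3 comparisons use the same UT libraries and are not independent.

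**Figure D2:**
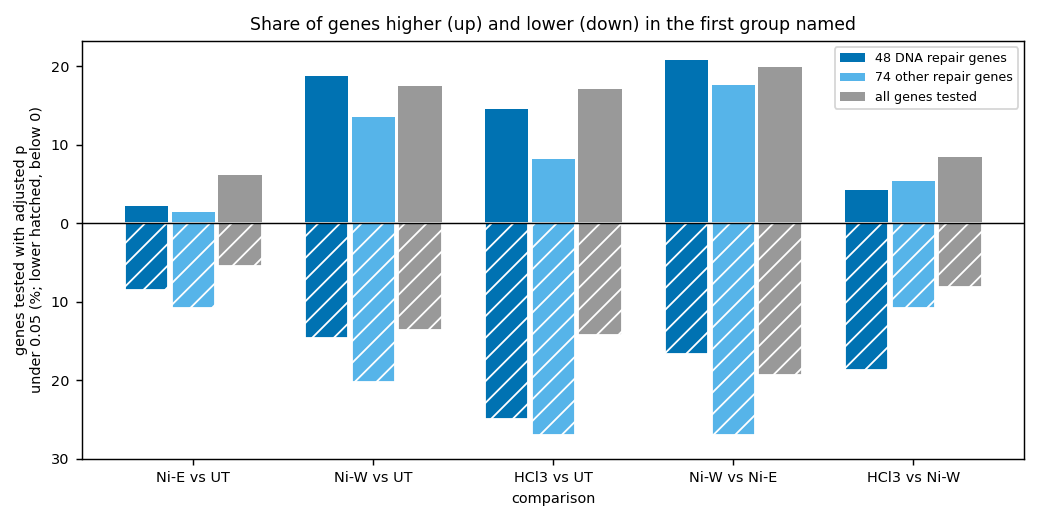
Bars give the percentage of genes tested that were higher (plain, upwards) or lower (hatched, downwards) in the first group named, at an adjusted P value under 0.05, for the 48 DNA repair genes, a list of 74 other repair genes and all genes tested. In Ni-E against UT 10.6% of the repair genes passed in total and in Ni-W against UT 33.3% did, beside 11.6% and 31.1% of all genes.

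MGMT, which encodes the alkyl-transferring repair protein O6-methylguanine-DNA methyltransferase, was the only repair gene that went from no reads to clear expression. It lies at chr10:131265454-131565783 on the plus strand (hg19). No read was counted in either UT library or either Ni-E library, which together held 132443516 reads, and 0 reads allow up to 3, or 8.01e-06 to 1.14e-05% of a library. In Ni-W, 366 and 195 reads were counted, or 5.62 and 4.43 RPKM. In HCl3, the counts were 185 and 209, or 3.55 and 3.84 RPKM. The 4 washed-out libraries were therefore apart from the 4 others. Against the floor of 3 reads in each library, the Ni-W level of MGMT was at least 71.6-fold higher than that of UT (adjusted P = 1.34e-10) and at least 82-fold higher than that of Ni-E (adjusted P = 3.91e-11). The HCl3 level was at least 52.1-fold higher than that of UT (adjusted P = 1.04e-09). HCl3 and Ni-W differed by -0.46 ± 0.22 (log2, SE), which did not pass (adjusted P = 0.145).

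MGMT stood in a region where few genes were read. Of 14 other genes within 2 Mb, 3 had a mean count of 10 or more. PTPRE, a receptor-type tyrosine phosphatase 1381 kb away, counted 36 and 26 reads in untreated cells, 57 and 80 in the Ni-E libraries, 336 and 241 in the Ni-W libraries, and 329 and 321 in those of HCl3. It rose by 2.92 (log2) in Ni-W and 3.10 in HCl3 (adjusted P = 4.18e-18 and 9.05e-23). GLRX3, a glutaredoxin gene 369 kb away, fell by 0.39 and by 0.40. MKI67, a marker of proliferation, differed by 0.42 in Ni-W (adjusted P = 0.000128) and by 0.13 in HCl3 (adjusted P = 0.322). The neighbours thus moved in different directions.

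DDB2 was the only repair gene differentially expressed in all 3 treated groups. It encodes the subunit that finds ultraviolet lesions in chromatin and recruits the repair complex, and is a known target of p53. DDB2 (chr11:47236493-47260769, plus strand, hg19) was at 5.05 and 4.45 RPKM in the UT libraries, 10.8 and 10.7 under nickel (Ni-E), 10.9 and 9.31 in the Ni-W clone, and 11.4 and 11.4 in HCl3. The lowest treated library was above the higher UT library by a wide margin, and the treated groups lay close together. Log2 fold changes against UT were 1.12 ± 0.18 for Ni-E (adjusted P = 2.95e-08), 1.05 ± 0.18 for Ni-W (adjusted P = 4.79e-08) and 1.20 ± 0.16 for HCl3 (adjusted P = 1.54e-12). No other listed gene overlaps DDB2, the median log2 fold change of the genes in its 10 Mb window was 0.03, -0.09 and 0.02, and the call held under each alternative tried. Its partner DDB1, with which it forms the lesion sensor, did not pass against UT in any group, at 105 and 110 RPKM in untreated cells, 126 and 120 in the Ni-E libraries, 105 and 99.6 in the Ni-W libraries, and 103 and 105 in those of HCl3.

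**Figure D3:**
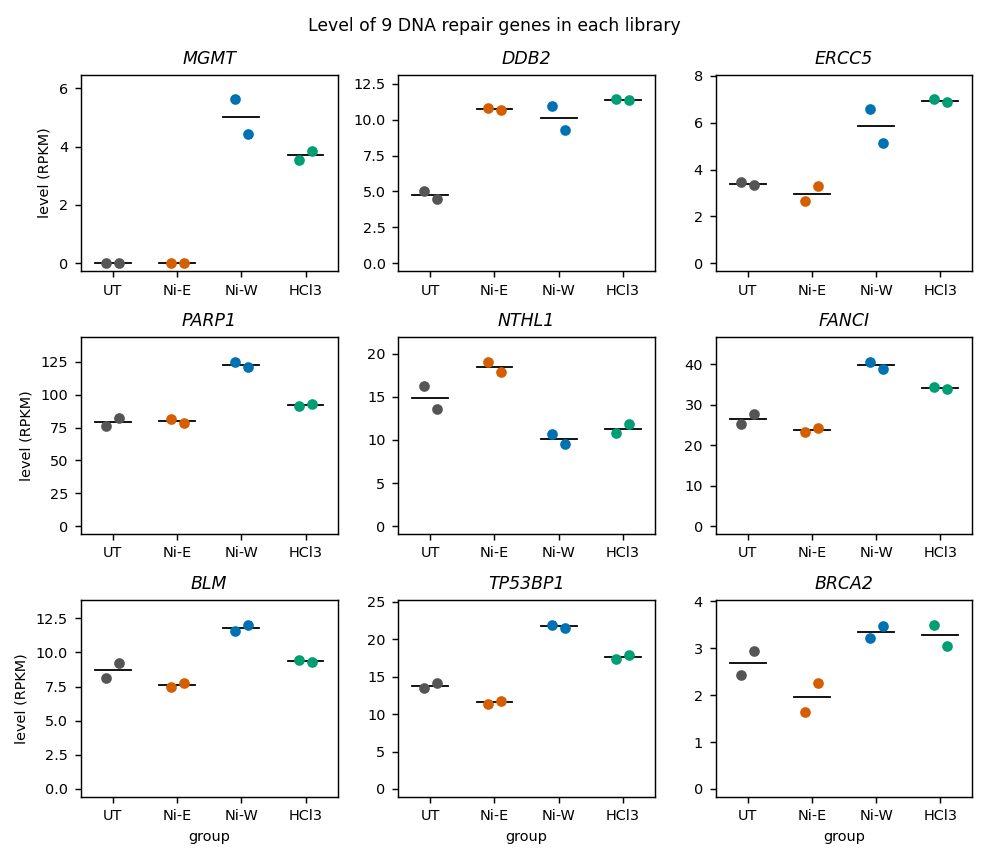
Points are the RPKM of each library and lines the mean of the 2 libraries of a group, for the 9 genes that were differentially expressed in a comparison with UT or between Ni-W and Ni-E. MGMT was at 0 RPKM in UT and Ni-E and at 3.55 to 5.62 RPKM in the 4 washed-out libraries, while DDB2 was at 4.45 and 5.05 RPKM in UT and at 9.31 RPKM or more in the other libraries.

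ERCC5, the nuclease that cuts on the 3′ side of a lesion, rose only in the washed-out groups. It lies at chr13:103498191-103528351 on the plus strand (hg19) and was at 3.47 and 3.34 RPKM in the UT libraries, 2.64 and 3.29 under nickel (Ni-E), 6.59 and 5.14 in the Ni-W clone, and 7.0 and 6.88 in HCl3. The washed-out libraries did not overlap with the others. The log2 fold change was 0.75 ± 0.17 in Ni-W (adjusted P = 5.97e-05), 0.97 ± 0.14 in HCl3 (adjusted P = 4.31e-11) and -0.26 ± 0.19 in Ni-E (adjusted P = 0.446). The difference between Ni-W and Ni-E passed the test on its own (0.99 ± 0.17, adjusted P = 8.47e-08). Without replicate 1 of Ni-W, the adjusted P against UT was 0.135. ERCC5 shares its strand and sequence with the read-through transcript BIVM-ERCC5, so the division of reads between them is uncertain. BIVM-ERCC5 was at 4.86 and 5.70 RPKM in untreated cells, 4.66 and 4.75 in the Ni-E libraries, 6.38 and 7.07 in the Ni-W libraries, and 5.99 and 6.31 in those of HCl3, and did not pass against UT (adjusted P = 0.412, 0.077 and 0.37). It passed as higher in Ni-W than in Ni-E, by 0.52 on the log2 scale (adjusted P = 0.000302).

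Of the other nucleotide excision repair genes, XPA and ERCC4 passed. XPA, the scaffold of the incision complex, rose in Ni-W, from 6.55 and 7.18 RPKM in UT to 10.2 and 9.57 (log2 fold change 0.51 ± 0.17, adjusted P = 0.0148). That call was lost in a refit with the replicate number as a block. The median of the 10 Mb window was 0.25 in Ni-W, and its subtraction left XPA at 0.26. In HCl3, XPA was at 8.67 and 9.03 RPKM, which did not pass. ERCC4, the partner of ERCC1 in the nuclease that cuts on the 5′ side, was at 3.69 and 4.33 RPKM in untreated cells and 3.45 and 3.33 in Ni-E, and fell to 2.85 and 3.21 in Ni-W (-0.44 ± 0.15, adjusted P = 0.0144) and to 2.98 and 2.67 in HCl3 (-0.56 ± 0.14, adjusted P = 0.000676). ERCC1 itself, at 49.6 and 41.4 RPKM in UT, did not pass against UT in any group. The damage sensor XPC, the helicases ERCC2 and ERCC3, and ERCC6, which acts at stalled transcription, did not pass against UT either. ERCC6 shares its strand with ERCC6-PGBD3 and PGBD3, so its reads are also uncertain.

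In base excision and single-strand break repair, the strand-break sensor PARP1 rose and the glycosylase NTHL1 fell in Ni-W. PARP1, which marks breaks with poly(ADP-ribose), was at 76.0 and 82.5 RPKM in the UT libraries, 81.2 and 78.9 under nickel (Ni-E), 125 and 121 in the Ni-W clone, and 91.6 and 93.0 in HCl3. Both Ni-W libraries were above all others. The log2 fold change was 0.60 ± 0.10 in Ni-W (adjusted P = 2.59e-08), with a window median of 0.24, and 0.17 ± 0.09 in HCl3, which did not pass (adjusted P = 0.159). HCl3 was below Ni-W by 0.43 ± 0.07 in a test of that difference (log2 fold change -0.43, adjusted P = 9.57e-09, window median -0.24). PARP2, which shares this role, did not pass in any comparison and ranged from 15.3 to 19.7 RPKM.

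NTHL1, which removes oxidised pyrimidines, was at 16.2 and 13.6 RPKM in untreated cells, 19.1 and 17.9 in the Ni-E libraries, 10.7 and 9.58 in the Ni-W libraries, and 10.8 and 11.9 in those of HCl3. The washed-out libraries lay below the UT libraries and the Ni-E libraries lay above them. NTHL1 fell by 0.59 ± 0.18 (log2) in Ni-W (adjusted P = 0.0039), and with either Ni-W library or UT replicate 1 left out it no longer passed, the highest adjusted P being 0.201. In HCl3 the log2 fold change was -0.45 ± 0.17 (adjusted P = 0.0236). Against Ni-E, Ni-W was lower by 0.86 on the log2 scale (-0.86 ± 0.16, adjusted P = 7.89e-07).

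The endonuclease APEX1, which cuts at the site left by a glycosylase, followed the same order of groups as NTHL1. It was at 78.9 and 76.8 RPKM in the UT libraries, 85.2 and 89.7 under nickel (Ni-E), 63.7 and 57.8 in the Ni-W clone, and 65.6 and 68.1 in HCl3, and passed in Ni-W (-0.39 ± 0.11, adjusted P = 0.00153) and HCl3 (-0.28 ± 0.10, adjusted P = 0.0158). OGG1, the glycosylase for 8-oxoguanine, was at 13.1 and 13.1 RPKM in untreated cells, 13.7 and 16.8 in the Ni-E libraries, 11.8 and 10.97 in the Ni-W libraries, and 8.80 and 9.41 in those of HCl3. It fell in HCl3 (-0.56 ± 0.14, adjusted P = 0.00033), where the median of its 10 Mb window was -0.40. CAMK1, which overlaps OGG1 on the opposite strand, fell there too (-0.48, adjusted P = 0.000169), and since no source says whether counting used the strand, their reads cannot be told apart with certainty.

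The ligases LIG1 and LIG3 moved in opposite directions in HCl3. LIG1, the ligase of replication and long-patch repair, was at 17.3 and 15.2 RPKM in the UT libraries, 17.6 and 21.3 under nickel (Ni-E), 22.1 and 20.7 in the Ni-W clone, and 21.5 and 22.1 in HCl3, and rose in Ni-W (0.36 ± 0.12, adjusted P = 0.00986) and HCl3 (0.38 ± 0.11, adjusted P = 0.00286). LIG3, the ligase of single-strand break repair, fell in HCl3 (-0.39 ± 0.11, adjusted P = 0.0025), while its scaffold XRCC1 rose (0.28 ± 0.11, adjusted P = 0.0415). In Ni-W, LIG3 did not pass (-0.08 ± 0.12, adjusted P = 0.677), but it lay below its window median there, which was 0.30. In HCl3 the window median of LIG3 was -0.06, and subtraction of this left -0.33. In the test of HCl3 against Ni-W, subtraction of the window median left LIG3 at -0.02. A fall of LIG3 in HCl3 alone is therefore not shown relative to its neighbours. The HCl3 calls of LIG1, LIG3 and XRCC1 were each lost in a refit with the replicate number as a block. UNG, which removes uracil, passed in Ni-W (-0.30 ± 0.11, adjusted P = 0.0235). Its window median there was -0.16, and subtraction of this left -0.14. No gene of this route passed in Ni-E, where POLB, the gap-filling polymerase, was at 15.0 and 14.5 RPKM against 11.9 and 11.3 in UT.

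**Figure D4:**
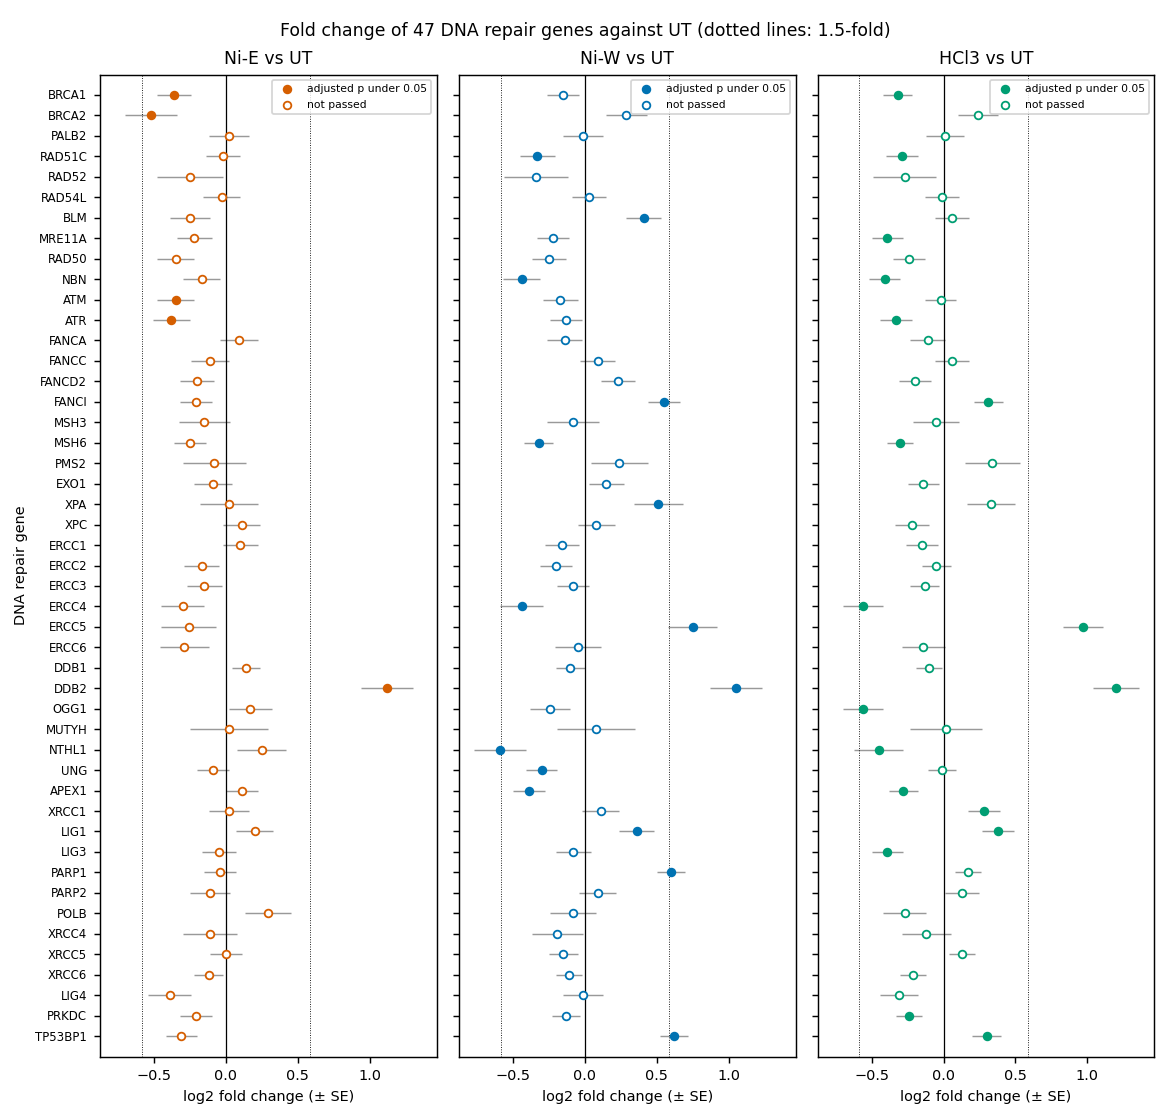
Points are the log2 fold changes against UT of 47 DNA repair genes (MGMT, which had no reads in UT, is left out) in Ni-E, Ni-W and HCl3, and bars the standard error. Filled points passed at an adjusted P value under 0.05 and dotted lines mark 1.5-fold. DDB2 lay beyond 1.5-fold in each panel, at 1.12, 1.05 and 1.20.

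Among the genes of non-homologous end joining, TP53BP1 alone was differentially expressed. It shields broken ends from resection and was at 13.5 and 14.1 RPKM in untreated cells, 11.3 and 11.8 in the Ni-E libraries, 21.9 and 21.6 in the Ni-W libraries, and 17.4 and 17.9 in those of HCl3. The 4 groups did not overlap. The log2 fold change was 0.62 ± 0.10 in Ni-W (adjusted P = 5e-08) and 0.30 ± 0.10 in HCl3 (adjusted P = 0.00868). In Ni-E it was -0.31 ± 0.11 (adjusted P = 0.0522). The end-holding pair XRCC5 and XRCC6, the ligase LIG4 and its partner XRCC4 did not pass against UT. PRKDC, the kinase bound to Ku, passed in HCl3 alone (-0.24 ± 0.09, adjusted P = 0.0325), at 62.5 and 61.1 RPKM against 66.2 and 74.3 in UT.

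The 4 genes that passed as lower in Ni-E were BRCA1 and BRCA2 of homologous recombination and the kinases ATM and ATR. Without passing, all 6 genes of end joining and all 4 of mismatch repair also had log2 fold changes below zero there. Among them were LIG4 (-0.39), TP53BP1 (-0.31) and XRCC5 (-0.00). Of the 11 genes of base excision and single-strand break repair, 7 were above zero and 4 below. Of all 14478 genes tested, 7270 were below zero. BRCA1, a ubiquitin ligase that promotes resection, was at 25.0 and 27.4 RPKM in the UT libraries, 19.5 and 23.6 under nickel (Ni-E), 24.4 and 23.3 in the Ni-W clone, and 22.9 and 21.0 in HCl3. BRCA2, a mediator of strand exchange, was at 2.43 and 2.93 RPKM in untreated cells, 1.64 and 2.26 in the Ni-E libraries, 3.22 and 3.47 in the Ni-W libraries, and 3.5 and 3.05 in those of HCl3. Both Ni-E libraries were below both UT libraries for each gene, and Ni-E replicate 1 was the lowest of the 8 libraries. The log2 fold changes in Ni-E were -0.36 ± 0.12 for BRCA1 (adjusted P = 0.0311) and -0.52 ± 0.18 for BRCA2 (adjusted P = 0.0335). For the kinases, which signal breaks (ATM) and stalled forks (ATR), they were -0.35 ± 0.13 (adjusted P = 0.0496) and -0.38 ± 0.13 (adjusted P = 0.0271). ATM was at 3.63 and 3.57 RPKM in UT and 2.82 and 3.05 in Ni-E, and ATR at 10.3 and 11.7 in untreated cells, 9.22 and 8.29 under nickel, 9.98 and 10.6 in the Ni-W clone, and 9.19 and 8.91 in HCl3, where ATR also passed (-0.33 ± 0.11, adjusted P = 0.00734).

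These 4 results were close to the threshold. Each was lost when Ni-E replicate 1 or UT replicate 2 was left out, and in a refit with the replicate number as a block. After removal of trends with GC content and length, BRCA1, BRCA2 and ATR were lost too, and the log2 fold change of ATM was 0.01. The proliferation marker MKI67 was at 10.3 RPKM in Ni-E replicate 1 and 21.0 in replicate 2, beside 17.8 and 17.1 in UT, and the part of this difference in the result was not tested.

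In the washed-out groups, other genes of homologous recombination passed. NBN, a subunit of the complex that binds broken ends, was at 23.9 and 28.9 RPKM in the UT libraries, 23.7 and 25.0 under nickel (Ni-E), 18.2 and 21.8 in the Ni-W clone, and 20.8 and 20.4 in HCl3, and fell in Ni-W (-0.44 ± 0.13, adjusted P = 0.00478) and HCl3 (-0.41 ± 0.11, adjusted P = 0.00139), with a window median of -0.28 in each. MRE11A, the nuclease of that complex, fell in HCl3 (-0.39 ± 0.11, adjusted P = 0.00168), and its partner RAD50 did not pass. RAD51C was the most abundant gene of the route, at 47.7 and 43.4 RPKM in untreated cells and 47.7 and 46.2 in Ni-E. It fell to 38.5 and 34.6 RPKM in Ni-W (-0.33 ± 0.12, adjusted P = 0.0188) and to 37.5 and 38.4 in HCl3 (-0.29 ± 0.11, adjusted P = 0.0253). Both RAD51C calls were lost after removal of trends with GC content and length. Over all refits its log2 fold change ran from -0.38 to -0.21 in Ni-W and from -0.32 to -0.13 in HCl3. BLM, the helicase that dissolves joined chromosomes, rose in Ni-W, where it was at 11.5 and 12.0 RPKM against 8.15 and 9.22 in UT (0.41 ± 0.12, adjusted P = 0.00514).

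Of the Fanconi anaemia genes, FANCI passed. It encodes the partner of FANCD2 in the clamp that marks crosslinks, and was at 25.2 and 27.8 RPKM in untreated cells, 23.4 and 24.1 in the Ni-E libraries, 40.5 and 38.9 in the Ni-W libraries, and 34.4 and 33.8 in those of HCl3. The groups did not overlap. It rose by 0.55 ± 0.11 (log2) in Ni-W (adjusted P = 2.62e-06), just under 1.5-fold, and by 0.31 ± 0.10 in HCl3 (adjusted P = 0.00699). POLG, which overlaps FANCI on the opposite strand, rose too, by 0.46 and 0.33 (adjusted P = 0.000257 and 0.00631). FANCD2, at 10.1 and 10.4 RPKM in UT and 12.9 and 11.8 in Ni-W, did not pass against UT, nor did FANCA and FANCC. In mismatch repair, MSH6, which binds mismatches, was at 53.6 and 59.5 RPKM in untreated cells and 49.0 and 50.6 in Ni-E, and fell to 46.6 and 46.7 in Ni-W (-0.32 ± 0.10, adjusted P = 0.00958) and to 47.4 and 48.2 in HCl3 (-0.30 ± 0.09, adjusted P = 0.00672). MSH3, PMS2 and EXO1 did not pass against UT.

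Several of these changes were shared with neighbouring genes. TP53BP1, FANCI and BLM are all on chromosome 15, and in Ni-W the median log2 fold changes of their 10 Mb windows (87, 45 and 33 genes) were 0.43, 0.46 and 0.53. Once the window median was subtracted, BLM stood at -0.12 and FANCI at 0.09 in Ni-W. In HCl3 the window medians were 0.26 for TP53BP1, 0.34 for FANCI and 0.41 for BLM. For BRCA2, on chromosome 13, the window median was 0.56 in Ni-W, above its own log2 fold change of 0.29, which did not pass. By contrast, the windows of DDB2 and ERCC5 had medians of -0.09 and 0.15 in Ni-W and of 0.02 and 0.08 in HCl3. The number of gene copies was not measured, so its part in these values was not tested.

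**Figure D5:**
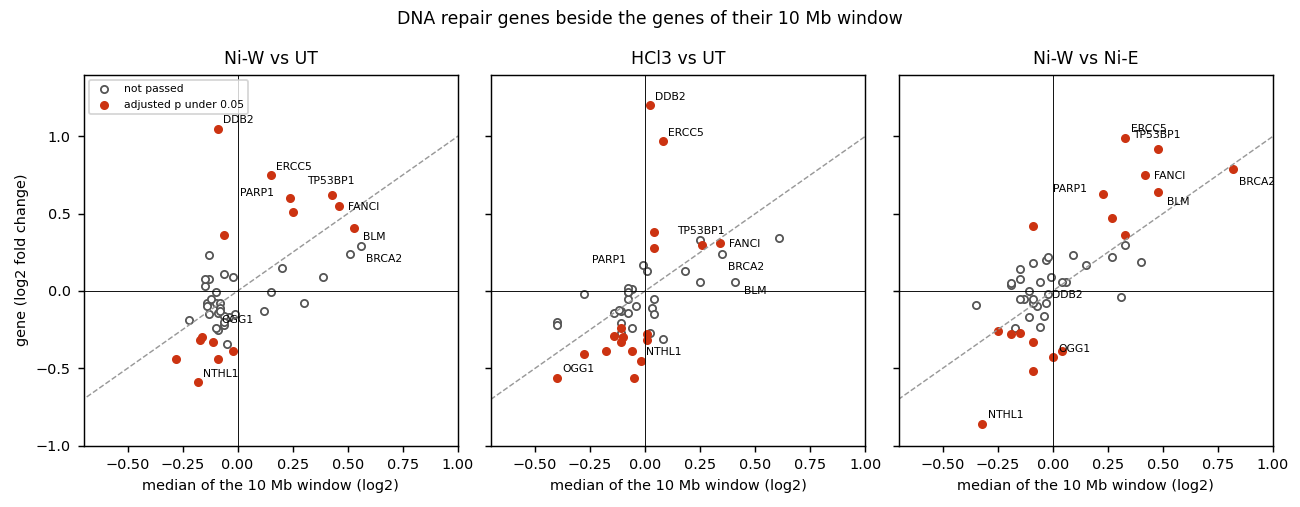
Points are 47 DNA repair genes, with the median log2 fold change of the genes in the same 10 Mb window on the x axis and the gene's own log2 fold change on the y axis, for Ni-W against UT, HCl3 against UT and Ni-W against Ni-E. Filled points passed at an adjusted P value under 0.05 and the dashed line marks equal values. DDB2 and ERCC5 lay far above the dashed line in both comparisons with UT, while BLM and BRCA2 lay below it there.

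Ni-W and Ni-E differed in the presence of nickel, in descent from a single cell and in time in culture. The parts of these in the test of Ni-W against Ni-E cannot be told apart. Here 18 of 48 genes passed (37.5%, background 39.2%), 10 higher (background 19.8%) and 8 lower (background 19.4%) in Ni-W, and 8 were differentially expressed (16.7%, background 20.5%). MGMT, ERCC5, TP53BP1 (0.92 ± 0.09, adjusted P = 1.86e-20), BRCA2 (0.79 ± 0.15, adjusted P = 1.65e-06), FANCI (0.75 ± 0.09, adjusted P = 6.08e-15), BLM (0.64 ± 0.11, adjusted P = 1.25e-07) and PARP1 (0.63 ± 0.09, adjusted P = 1.01e-11) were higher, and NTHL1 was lower. The window of BRCA2 had a median of 0.82, slightly above the gene. DDB2 was not among the genes that passed.

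Between the washed-out groups, HCl3 and Ni-W, 11 of 48 genes passed (22.9%, background 16.6%). With 1 library left out, between 1 and 9 passed, the fewest without HCl3 replicate 2 (1), HCl3 replicate 1 (2) and Ni-W replicate 1 (7). UNG (0.30 ± 0.08, adjusted P = 0.00451) and XRCC5 (0.28 ± 0.07, adjusted P = 0.000353) were higher in HCl3 (background 8.45%), and BLM, FANCD2, FANCI, EXO1, XPC, LIG3, PARP1, LIG4 and TP53BP1 were lower (background 8.1%), by 0.24 to 0.43 on the log2 scale. None was differentially expressed by DESeq2 or by edgeR (background 4.77%), with 16 at an unadjusted P value under 0.05 and the largest called difference that of FANCD2 (-0.43 ± 0.09, adjusted P = 0.000134) and PARP1. XRCC5 lay in a window with a median of 0.33, and FANCD2 and XPC in windows with medians of -0.30. After subtraction of the window median, XRCC5 stood at -0.05, LIG3 at -0.02, EXO1 at -0.01 and XPC at 0.00. FANCD2 stood at -0.13, TP53BP1 at -0.14, FANCI at -0.18 and PARP1 at -0.19. LIG4 stood at -0.23, BLM at -0.30 and UNG at 0.33. For DDB2 and ERCC5 no difference between the washed-out groups was found, which does not show that they are alike.

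A wider list of 74 other repair genes was counted in the same way. In Ni-E, 1 rose and 8 fell (12.2% in all, background 11.6%), including CLSPN, the claspin adaptor of fork signalling (-0.66 ± 0.12, adjusted P = 1.64e-06), and XRCC2 (-0.70 ± 0.20, adjusted P = 0.00723). In Ni-W, 10 rose and 15 fell (33.8%, background 31.1%). FANCF, an adaptor of the Fanconi core complex, rose from 1.36 and 1.21 RPKM in UT to 2.70 and 2.54 in the Ni-W clone and 2.55 and 2.76 in HCl3 (0.99 ± 0.22 in each, adjusted P = 9.24e-05 and 5.33e-05). In Ni-W, APTX, which repairs blocked ends, fell by 0.94 (log2) and FANCG by 0.78, in windows with a median of -0.66. NHEJ1, a partner of LIG4, fell by 0.88, and PCNA, the sliding clamp of replication, by 0.68. In HCl3, 6 rose and 20 fell (35.1%, background 31.4%). The list medians were -0.04, -0.15 and -0.19 for the comparisons of Ni-E, Ni-W and HCl3 with UT. Among 26 cell cycle genes, 0 rose and 1 fell in Ni-E (3.85%, background 11.6%). In Ni-W, 6 rose and 3 fell (34.6%, background 31.1%), and in HCl3, 2 rose and 4 fell (23.1%, background 31.4%). The list was split in Ni-W: 5 of 10 mitosis genes rose and 0 fell, while 1 of 16 replication genes rose and 3 fell. TOP2A, a topoisomerase of dividing cells among the mitosis genes, rose by 0.84 ± 0.10 in Ni-W (adjusted P = 8.5e-15).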

How the data were processed

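RNA-Seq was carried out by the authors on 8 libraries of BEAS-2B cells in 4 groups of 2. Per the labels and the study's methods, the authors aligned reads to hg19 with STAR 2.4, kept uniquely aligned reads and deposited read counts per RefSeq gene, obtained with BioWardrobe. The authors also deposited RPKM values, these counts scaled to gene length and library size. Whether strand was used in counting is not given in the sources used here. Groups and replicate numbers were taken from the labels.

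Counts were tested in R 4.3.3 with DESeq2 1.42.0 on the 4 libraries of each pair (median-of-ratios factors, Wald test on both sides, default independent filtering, P values adjusted by Benjamini-Hochberg over all genes tested), with thresholds of 0.05 and 1.5-fold as in the study's methods. RPKM values are levels and were not tested. Window medians used genes with a mean normalised count of at least 50 in windows of 10 Mb. A fold change against a group with no reads was computed against 3 reads in each library and is a lower bound. The scripts were tested on simulated data. The 48 genes, the other lists and the tests were chosen with earlier results of these data known.

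Repair genes given in every library were those differentially expressed in any comparison, the most abundant of each route, and, in each comparison with UT, the 3 up and 3 down with the smallest adjusted P. Other genes with values (such as ATM, XPA, LIG1, POLB, PTPRE and MKI67) were picked after their values were seen. Promoters came from RefSeq (GRCh38.p14) and were printed for the differentially expressed repair genes with the 2 largest changes each way in Ni-W against UT, where only NTHL1 had fallen. Alternatives were the edgeR 4.0.16 quasi-likelihood test, TMM factors, a minimum mean count of 10, all 8 libraries in 1 fit, a replicate block, removal of trends with GC content (GENCODE transcripts) and length, subtraction of the window median and leaving out each library. Chromatin data and other cells of the study were not analysed here.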

Additional observations from a re-analysis of the deposited data

Results flagged for a closer look

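The effect against UT differed between Ni-W and Ni-E for 8 repair genes, by the DESeq2 test of Ni-W against Ni-E itself, in which the shared UT libraries cancel. On the log2 scale the differences were 0.79 for BRCA2, 0.64 for BLM, 0.75 for FANCI, 0.99 for ERCC5, -0.86 for NTHL1, 0.63 for PARP1 and 0.92 for TP53BP1. MGMT, with no reads in Ni-E, was at least 82-fold higher in Ni-W. These 8 calls kept an adjusted P value under 0.05 in each of the 11 refits tried. For BRCA2 and BLM, the medians of their windows were 0.82 and 0.48. After subtraction of the window median, BRCA2 stood at -0.03, BLM at 0.16, FANCI at 0.33 and PARP1 at 0.39. TP53BP1 stood at 0.44 and NTHL1 at -0.54, while ERCC5 (0.67) and MGMT alone stayed beyond 1.5-fold. Groups of 2 libraries were too small to be searched for outlying libraries.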

How the results depend on the processing

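With 2 libraries in each group, counts near the threshold moved with the fit, while DDB2 passed under every refit in each comparison with UT, ERCC5 was lost in Ni-W without Ni-W replicate 1 (adjusted P = 0.135) and MGMT in HCl3 with the replicate block (adjusted P = 0.0689, the highest of its refits, where the lowest was 5.62e-10) or the crossed one. Over the refits of genes that had passed, 566 values still passed, 215 no longer did and 2 changed sign. In Ni-E against UT, where 5 genes passed, 2 did with edgeR, 9 with all 8 libraries in 1 fit, 1 with the replicate block, 2 with GC and length trends removed, 1 with both and 2 with the replicate block crossed, an alternative added after seeing the data. Without 1 library, 1 (Ni-E replicate 1 or UT replicate 2), 2 (Ni-E replicate 2) or 3 (UT replicate 1) passed, and 1 or, without Ni-E replicate 2, 2 were differentially expressed. In Ni-W against UT, 6 passed without Ni-W replicate 1, 7 without Ni-W replicate 2, 9 without UT replicate 2 and at most 11, and 3 in place of 6 were differentially expressed after subtraction of the window median (4 to 7 without 1 library). In HCl3 against UT, 5 in place of 19 passed with the replicate block and 3 without either HCl3 library, with a highest count of 23, and 5 in place of 3 were differentially expressed with trends removed and the block (3 to 4 without 1 library). In Ni-W against Ni-E, 11 in place of 18 passed with the block, 9 without Ni-W replicate 1, 11 without Ni-W replicate 2 and at most 13 without another library, and 3 in place of 8 were differentially expressed with trends removed, 3 with trends removed and the block, and 2 after subtraction of the window median (7 to 9 without 1 library). In HCl3 against Ni-W, 4 in place of 11 passed with the block, 5 with trends removed and the block, and 1 without HCl3 replicate 2, 2 without HCl3 replicate 1, 7 without Ni-W replicate 1 and at most 9 without 1 library. Signs changed for ATM in Ni-E with trends removed (0.01) and with the block as well (0.02), and after subtraction of the window median for BLM in Ni-W (-0.12), FANCI in HCl3 (-0.04), BRCA2 in Ni-W against Ni-E (-0.03), and XPC (0.00) and XRCC5 (-0.05) in HCl3 against Ni-W. A lone library was assumed to vary like the others, and the cause of these changes was not tested. The values do not settle whether the replicate numbers pair the libraries. Deviations from the group means correlated between libraries of the same number at -0.145 (HCl3 and UT) to 0.213 (Ni-W and UT) over 13856 genes.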
